A study of Homo sapiens with 16 samples.

Results

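The replication-dependent and linker histone genes were read by 43 of the 22215 probe sets outside the array's own controls. A probe set is a group of short probes that together give 1 value for a transcript. Members were all probe sets whose only gene symbol in the platform annotation begins with H1-, H2AC, H2BC, H3C or H4C. They stood for 42 genes, because H2BC5 had 2 probe sets. The linker histones (H1) had 7 probe sets, H2A had 8, H2B had 13, H3 had 7 and H4 had 8. Another 20 probe sets were annotated to several histone genes at the same time. These are described apart, with no gene named from them. HepG2, an established hepatoma line of liver origin, was exposed to an adenovirus vector for 6 h or 12 h. In the LacZ groups the vector carried bacterial beta-galactosidase, which served as the control. In the GPI-PLD groups it carried the phospholipase D that cuts glycosylphosphatidylinositol anchors of membrane proteins. Each of the 4 groups had 4 Affymetrix arrays, with targets made from 10 microgram of total RNA. Every group carried a vector, so uninfected cells were not part of the comparison. The dose of virus and the promoter in the vectors are not given in the labels. HepG2 is 1 line, and it is not stated if replicate arrays represent separate cultures, so the p-values measure only the spread between these samples.

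Histone octamers, made of H2A, H2B, H3 and H4, wrap DNA into nucleosomes, and linker histone H1 binds where the DNA enters and leaves. Most genes for these proteins lie in clusters and are transcribed mainly in S phase, when new DNA has to be packaged. Their messenger RNAs end in a conserved stem-loop in place of a poly(A) tail. The stem-loop binding protein SLBP and the U7 small nuclear ribonucleoprotein guide the cut that makes this end. H1-10 is an exception, a linker histone gene outside the clusters with a polyadenylated transcript. Several clustered genes, among them H1-2, H2AC6, H2BC5, H2BC12 and H2BC21, are known to make polyadenylated transcripts as well. Standard Affymetrix labelling of that period copied RNA from an oligo-dT primer, which needs a poly(A) tail.

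Histone promoters are short and share a few motifs, and 4 of them are printed because the results below turn on their genes or, for H1-10, because it shows the contrast with the clustered genes. H2BC13 and H2BC9 were the members that passed the test between 6 h and 12 h, and H2AC6 was the brighter probe set with the smallest p in the LacZ arrays. Each sequence is the 250 bases before the annotated start of the gene, taken from RefSeq on GRCh38.p14 and written 5′ to 3′ on the gene's strand. Capitals mark 3 motifs wherever they occur on either strand. The first is CCAAT, the second is the TATA box motif TATAAA, and the last is the octamer ATTTGCAT of histone and immunoglobulin genes. Their reverse complements are in capitals too, and no matches overlapped.
H2BC13: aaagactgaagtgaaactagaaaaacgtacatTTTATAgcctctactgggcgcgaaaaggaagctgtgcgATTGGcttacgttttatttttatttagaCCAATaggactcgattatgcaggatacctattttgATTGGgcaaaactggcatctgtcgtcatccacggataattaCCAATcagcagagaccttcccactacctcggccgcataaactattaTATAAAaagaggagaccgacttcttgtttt
H2BC9: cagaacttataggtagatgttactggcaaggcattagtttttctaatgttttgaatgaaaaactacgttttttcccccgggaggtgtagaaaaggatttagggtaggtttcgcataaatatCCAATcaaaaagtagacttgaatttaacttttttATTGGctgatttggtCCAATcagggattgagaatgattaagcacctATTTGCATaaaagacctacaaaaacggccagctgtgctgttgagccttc
H2AC6: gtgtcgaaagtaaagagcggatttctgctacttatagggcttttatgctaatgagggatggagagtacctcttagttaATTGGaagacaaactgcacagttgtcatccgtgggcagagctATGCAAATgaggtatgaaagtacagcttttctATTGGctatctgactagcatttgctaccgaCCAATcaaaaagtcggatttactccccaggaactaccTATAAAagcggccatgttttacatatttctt
H1-10: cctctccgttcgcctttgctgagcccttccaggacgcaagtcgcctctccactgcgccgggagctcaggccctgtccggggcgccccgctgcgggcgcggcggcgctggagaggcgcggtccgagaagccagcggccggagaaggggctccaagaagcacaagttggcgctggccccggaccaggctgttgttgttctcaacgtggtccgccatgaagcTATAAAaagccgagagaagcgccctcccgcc
The window of H2BC13 lies at chr6:27807930-27808179 (minus strand), that of H2BC9 at chr6:26251364-26251613 (plus strand), that of H2AC6 at chr6:26123922-26124171 (plus strand) and that of H1-10 at chr3:129316287-129316536 (minus strand). H2BC13 had 4 CCAAT matches and 2 TATAAA matches and no octamer, whereas H2BC9 had 3 CCAAT matches, 1 octamer and no TATAAA. H2AC6 had all 3 motifs, and H1-10 had a TATAAA match alone.

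Promoter sequences were found for 39 of the 42 genes. A CCAAT match was present in 33 of the 39 windows (84.6%), against 33% of 27305 promoters of the same length. TATAAA was present in 66.7% of the histone windows and in 11.1% of all promoters. The octamer divided the classes. It was found in 6 of 8 H2A windows and 8 of 11 H2B windows, but in 0 of 7 H1, 0 of 6 H3 and 0 of 7 H4 windows, and in 1.66% of all promoters. H4 windows differed from the other classes in CCAAT too, with 2 of 7 holding it. A match is a description of letters in this window and says nothing of binding in these cells.

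Most histone probe sets were dim. A probe set was called dim when its mean signal over the 16 arrays was under the 40th percentile of all probe sets, a signal of 208.5 on the deposited linear scale. By this limit 28 of 43 members were dim (65.1%), against 40% of all probe sets by construction. The dim members were 5 of 7 in H1, 5 of 8 in H2A, 7 of 13 in H2B, 6 of 7 in H3 and 5 of 8 in H4. The 15 above the limit were H1-10 and H1-2 among the linker histones, H2AC14, H2AC25 and H2AC6, then H2BC12, H2BC12L, H2BC21, H2BC6 and both H2BC5 probe sets, and H3C6, H4C11, H4C4 and H4C7. Just below the limit stood H2AC17 (mean signal 197.6) and H4C8 (164.7), and just above it H2BC12 (249.7) and H4C7 (255.7). H1-10 and the 5 clustered genes named above for polyadenylated transcripts were all above the limit. Those genes were named after their signals had been seen, so this carries no test. The lowest member mean was 19.9, at H2BC17, and the highest was 2106, at H4C11. Signals of different probe sets depend on their probes and do not rank the genes by transcript amount.

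**Figure D1:**
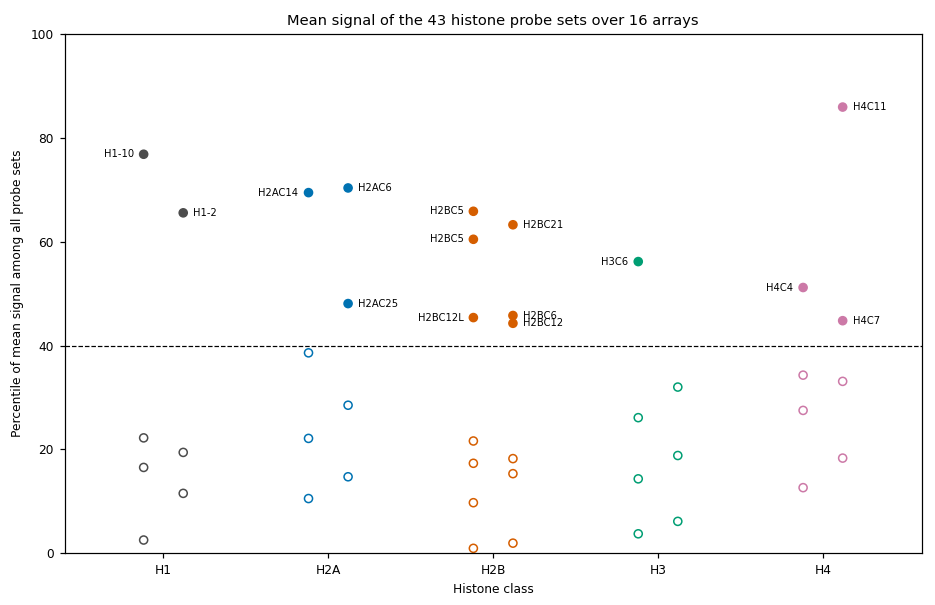
Percentile of the mean signal over 16 arrays for each histone probe set, by histone class, among 22215 probe sets. Filled points are above the dimness limit (dashed line at the 40th percentile) and open points are dim. In every class most or about as many points lie below the line as above it, with 28 of 43 below.

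Of the 30 members with the plain suffix _at, 24 were dim (80%), against 47.1% of all 11813 probe sets of that kind. Of the 13 with the suffix _x_at or _s_at, 4 were dim (30.8%), against 32% of all 10402. These suffixes mark probe sets whose probes match several transcripts (_s_at) or may also bind other sequences (_x_at). The _x_at kind made up 18.6% of members and 10.9% of all probe sets. Genes of the H2A, H2B, H3 or H4 class have near-identical coding sequences within a class, so the value of an _x_at or _s_at member may include transcripts of its relatives. This applies to H2AC14 and H2AC6, to H2BC12L, H2BC21, both H2BC5 probe sets, H2BC6 and H2BC9, to H3C2 and H3C8, and to H4C11 and H4C8. H1-10 also has an _s_at probe set, but as a linker histone outside the clusters it is not counted here.

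The arrays were alike in scale, with medians between 304.5 and 377.6. Correlations of log2 signals with arrays of the same group averaged 0.938 to 0.939 in GPI-PLD cells at 12 h and 0.948 to 0.958 elsewhere. Of the hepatocyte marker probe sets 18 of 20 were above the dimness limit, and 5 of 16 fibroblast, 1 of 8 endothelial and 2 of 6 leukocyte ones were, the brightest of the latter being LYZ (lysozyme) at 9632. The summed signal of the 16 fibroblast probe sets ran from 2707 to 3728 in LacZ and from 2268 to 2981 in GPI-PLD arrays at 6 h, and from 2370 to 2707 and from 2754 to 4080 at 12 h. These 12 h sums did not overlap. For the same groups in order the endothelial sums were 384.8 to 971.5, 502.8 to 822.6, 847.4 to 1235 and 846.3 to 1196. Leukocyte sums were 6224 to 12230, 8389 to 11240, 10160 to 14110 and 9013 to 12670. Hepatocyte sums were 431300 to 476600, 453800 to 504400, 450900 to 504400 and 460000 to 524900. GPLD1, which encodes GPI-PLD, read 260.5 ± 37.7 in LacZ and 284.3 ± 138 in GPI-PLD arrays at 6 h (mean ± SD, n = 4) at its brightest probe set, a log2 difference of 0.02 ± 0.32 (SE), and 318.6 ± 136 and 328.3 ± 46.9 at 12 h (0.12 ± 0.32). The other GPLD1 probe sets, from brightest to dimmest, differed by -0.22, 0.37, -0.08 and 0.60 at 6 h and by 0.18, -0.33, -0.18 and 0.07 at 12 h. None passed. The dimmest read 25.1 in LacZ and 71.6 in GPI-PLD arrays at 6 h (0.60 ± 0.22). The construct's sequence is not given in the labels, so whether these probes read it is unknown, and LacZ and GPI-PLD below are the labels of the arrays.

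The first comparison asked whether the GPI-PLD vector changed histone transcripts relative to the LacZ vector. No histone probe set passed at 6 h, at 12 h, on the average of both times or in the difference between the times. The test was limma on log2(signal + 63), with Benjamini-Hochberg adjustment over all 22215 probe sets and a threshold of 0.05. In each of these 4 contrasts 0% of all probe sets passed in either direction. At an unadjusted p under 0.05 there was 1 member at 6 h (2.33% of members, against 4.33% of all probe sets) and there were 3 at 12 h (6.98% against 6.76%). There were 2 for the average (4.65% against 4.37%) and 3 for the difference between the times (6.98% against 6.91%), so the members' shares stood near or under those of all probe sets. Without limma's trend and robust options 0 members passed in any of the 4. In bulk RNA a change in the share of cells in S phase and a change in transcript per cell cannot be told apart.

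The median log2 difference between GPI-PLD and LacZ over the 43 probe sets was -0.10 at 6 h and 0.04 at 12 h, beside -0.01 and 0.03 over all probe sets. By class the 6 h medians were -0.09 for H1, -0.27 for H2A, -0.03 for H2B, -0.01 for H3 and -0.14 for H4. At 12 h they were -0.13, -0.13, 0.03, 0.13 and 0.11 in the same order. For the 2, 3, 6, 1 and 3 brighter probe sets of these classes the 6 h medians were 0.08, -0.09, -0.12, -0.23 and -0.12. Their 12 h medians were -0.23, -0.30, 0.02, 0.30 and 0.17. The precision differed with brightness. Of the 15 brighter probe sets 11 had a 95% interval within 2-fold in either direction at 6 h and 13 at 12 h. Of the 28 dim ones 12 and 13 did. These folds are on signal + 63, which makes them smaller than folds of the signal itself, most of all at low signals. The counts for dim probe sets therefore do not show that their signals were bounded within 2-fold. At 6 h the brighter probe sets with wider intervals were H2AC25, H2BC12, H2BC12L and H2BC6, and at 12 h they were H2AC25 and H2BC12.

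**Figure D2:**
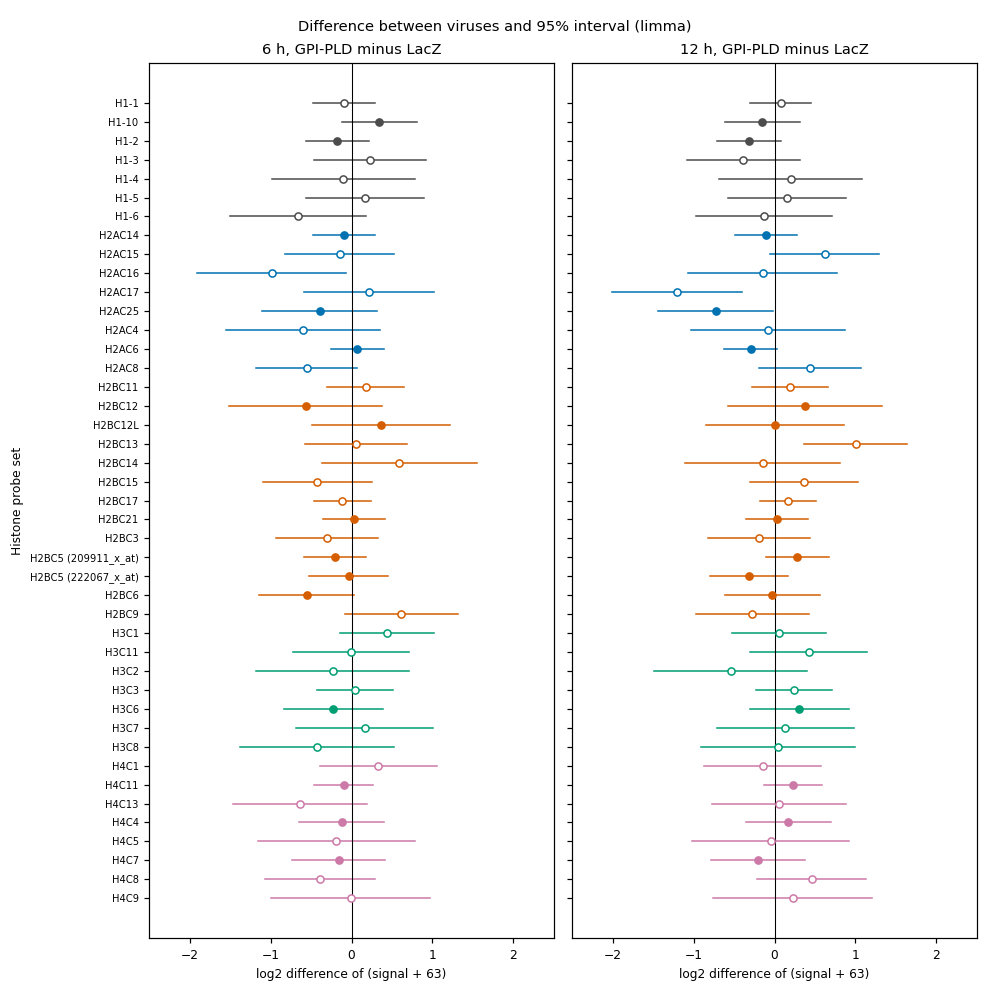
Difference between GPI-PLD and LacZ arrays at 6 h (left) and 12 h (right) for each histone probe set, as log2 of signal + 63, with its 95% interval from limma. Filled points are above the dimness limit, open points are dim, and colours are histone classes. No probe set passed the adjusted test at either time.

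Among the linker histones H1-10 had the highest signal. It read 1192.2, 1223.9, 1462.0 and 555.2 in LacZ and 1374.5, 1172.3, 1450.2 and 1403.0 in GPI-PLD arrays at 6 h. At 12 h it read 911.9, 1273.6, 1255.4 and 1484.5 in LacZ and 799.0, 1229.6, 1434.8 and 985.8 in GPI-PLD arrays. One LacZ array at 6 h was low, and the groups overlapped at both times. The difference was 0.34 ± 0.22 (SE) at 6 h and -0.15 ± 0.22 at 12 h, and the test of the difference between the times gave an adjusted p of 0.80. H1-2, a somatic linker histone, read between 629.5 and 1050.4 in LacZ and between 600.8 and 854.5 in GPI-PLD arrays at 6 h. At 12 h it read 558.2, 597.2, 923.9 and 607.9 in LacZ and 557.9, 613.6, 492.9 and 417.2 in GPI-PLD arrays. The groups overlapped, with a mean difference over both times of -0.25 ± 0.13 (limma adjusted p = 1.0). H1-6, the testis-specific linker histone, was dim, and its arrays ran from 38.1 to 190.1 in LacZ and from 16.6 to 135.0 in GPI-PLD arrays at 6 h, with a difference of -0.66 ± 0.40.

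H2A probe sets held several of the largest differences between the vectors, none of which passed. Of the 8, 6 were lower and 2 higher in GPI-PLD arrays at either time. H2AC8, dim, differed by -0.56 ± 0.30 at 6 h and 0.44 ± 0.30 at 12 h. The test of the difference between the times gave 0.99 ± 0.43 for it (limma adjusted p = 0.67). H2AC15, also dim and named after its value was seen, differed by 0.62 ± 0.32 at 12 h (0.75). H2AC16 read 128.9, 178.7, 178.5 and 116.7 in LacZ and 12.7, 71.8, 97.8 and 16.6 in GPI-PLD arrays at 6 h. All 4 GPI-PLD arrays lay below all 4 LacZ arrays, at signals under the dimness limit in both groups, and the difference was -0.99 ± 0.44 with an adjusted p of 1.0. At 12 h the groups of H2AC16 overlapped (-0.15 ± 0.44). H2AC17 read 126.5, 335.5, 276.6 and 282.2 in LacZ and 27.5, 39.2, 221.2 and 55.3 in GPI-PLD arrays at 12 h. Of the GPI-PLD arrays 3 lay below every LacZ array and replicate 3 lay above 1 of them. The difference was -1.21 ± 0.39 (adjusted p = 0.53), against 0.21 ± 0.39 at 6 h, and the test of the difference between the times gave an adjusted p of 0.62. H2AC25 was above the dimness limit and read 375.7, 396.4, 271.6 and 428.0 in LacZ and 162.3, 293.3, 221.5 and 131.4 in GPI-PLD arrays at 12 h. The groups overlapped by 1 array of each, with a difference of -0.72 ± 0.34 at 12 h (adjusted p = 0.73) and -0.56 ± 0.24 over both times (1.0).

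Among H2B probe sets H2BC6 stood at 273.4, 307.0, 343.2 and 366.2 in LacZ and 191.2, 201.3, 177.4 and 227.5 in GPI-PLD arrays at 6 h. These groups did not overlap, yet the difference of -0.55 ± 0.28 did not pass (adjusted p = 1.0), and at 12 h it was -0.03 ± 0.28. H2BC13 was dim and gave 167.0, 36.8, 31.8 and 37.7 in LacZ and 204.4, 183.9, 209.1 and 133.1 in GPI-PLD arrays at 12 h. The first LacZ array fell among the GPI-PLD arrays, and the difference of 1.0 ± 0.30 had an adjusted p of 0.50. The brighter H2BC5 probe set (_x_at, mean signal 682.4) differed by -0.20 ± 0.19 at 6 h and 0.28 ± 0.19 at 12 h, and the other H2BC5 probe set by -0.03 ± 0.23 and -0.32 ± 0.23. The probe sets of this gene thus had opposite signs at 12 h, with intervals that both included 0. H4C8, dim, read between 133.2 and 173.7 in LacZ and between 179.6 and 359.0 in GPI-PLD arrays at 12 h, without overlap, and its difference was 0.46 ± 0.32. In all, 0 members were without overlap and higher at 6 h (1.23% of all probe sets), 2 lower at 6 h (1.54%), 1 higher at 12 h (2.31%) and 0 lower at 12 h (1.49%).

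The second comparison was between 12 h and 6 h in the LacZ arrays. No histone probe set passed, while 353 of all probe sets were higher (1.59%) and 253 lower (1.14%). Above the dimness limit, where 15 members lay and 0 passed, 2.57% of all probe sets were higher and 1.84% lower. At an unadjusted limma p under 0.05 there were 4 members (9.30%), against 13.2% of all probe sets, and without the trend and robust options 0 members passed. The 4 were H2AC6, H2AC8, H4C11 and H2BC12, of which the last was named after its value had been seen. The median difference over the 43 was -0.05, beside 0.00 over all probe sets. The class medians were 0.20 for H1, -0.10 for H2A, -0.15 for H2B, 0.13 for H3 and -0.16 for H4. For the 2, 3, 6, 1 and 3 brighter probe sets of these classes they were -0.01, 0.10, -0.19, 0.13 and -0.19.

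H2AC6, an H2A gene with a bright _s_at probe set, read 696.6, 529.7, 908.9 and 744.5 in LacZ arrays at 6 h, and 1031.1, 1306.0, 978.3 and 1025.8 at 12 h. Every 12 h array was above every 6 h array. The difference was 0.57 ± 0.16, a fold of 1.48 on signal + 63 (95% interval 1.18 to 1.86), with a limma adjusted p of 0.056. In GPI-PLD arrays the same probe set read 726.9, 774.0, 697.3 and 796.1 at 6 h and 738.7, 1023.3, 888.7 and 838.0 at 12 h, which overlapped, with a difference of 0.20 ± 0.16. Over 27 alternative settings the LacZ difference of H2AC6 stayed between 0.44 and 0.68 and its adjusted p ran from 0.022 to 0.20. It passed in 6 of them, which included testing only brighter probe sets (adjusted p = 0.033 for those above the dimness limit) and omitting replicate 3 of LacZ at 6 h (0.026) or replicate 2 of GPI-PLD at 12 h (0.049).

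H4C11, an H4 gene read by an _x_at probe set, went the other way. It read 2065.5, 1986.8, 2645.7 and 3395.3 in LacZ arrays at 6 h, and 1684.0, 1903.2, 1199.5 and 1785.1 at 12 h, without overlap. The difference was -0.59 ± 0.17 with an adjusted p of 0.083, and in GPI-PLD arrays it was -0.26 ± 0.17. Over 27 settings its adjusted p ran from 0.036 to 0.27, and it passed in the 3 that tested only brighter probe sets, 1 of which also kept a single probe set per gene. H2AC8, dim, read 104.0, 93.1, 120.1 and 182.6 in LacZ arrays at 6 h, and 41.5, 13.4, 21.9 and 19.9 at 12 h. These groups did not overlap either, with a difference of -1.10 ± 0.30 and an adjusted p of 0.056. In GPI-PLD arrays H2AC8 ran from 14.6 to 126.9 at 6 h and from 38.8 to 90.3 at 12 h, with a difference of -0.10 ± 0.30. It passed with quantile normalization (0.045), with scaling to the 75th percentile (0.046) and without GPI-PLD 6 h replicate 1 (0.043), 2 (0.050) or 3 (0.046), in a range from 0.043 to 0.16. H2BC12 was 271.8, 264.1, 561.7 and 389.7 at 6 h and 130.4, 88.2, 305.6 and 66.8 at 12 h, which overlapped, with a difference of -1.12 ± 0.46 (adjusted p = 0.27). Without overlap there were 1 member higher (4.55% of all probe sets) and 2 lower (3.99%) in LacZ arrays.

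The third comparison was between 12 h and 6 h in the GPI-PLD arrays, where 2 of 43 histone probe sets passed, both H2B and both dim. H2BC13 rose and H2BC9 fell. Of all probe sets 445 passed as higher (2%) and 399 as lower (1.8%). Most of these, 397 and 393, were above the dimness limit, so dim probe sets such as these 2 members passed less often than these shares. At an unadjusted limma p under 0.05 there were 5 members (11.6%), against 15.8% of all probe sets. The others were H2AC17, H4C8 and H3C6. The median over the 43 was 0.11, beside 0.05 over all probe sets, and by class it was 0.21 for H1, 0.05 for H2A, 0.13 for H2B, 0.44 for H3 and 0.03 for H4. For the 2, 3, 6, 1 and 3 brighter probe sets of these classes it was -0.33, -0.23, -0.07, 0.66 and -0.11. The sign thus differed from that of the whole class in all but H3. Above the dimness limit 0 of 15 members passed, where 2.98% of all probe sets were higher and 2.95% lower.

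H2BC13, an H2B gene, read 21.2, 61.9, 53.7 and 34.5 in GPI-PLD arrays at 6 h, and 204.4, 183.9, 209.1 and 133.1 at 12 h. All 12 h arrays were above all 6 h arrays, and 2 of the 12 h signals, 204.4 and 209.1, were at about the dimness limit. The difference was 1.22 ± 0.30, a fold of 2.33 on signal + 63 (95% interval 1.5 to 3.61), with a limma adjusted p of 0.024. In LacZ arrays the same probe set read 47.8, 27.5, 54.9 and 24.2 at 6 h and 167.0, 36.8, 31.8 and 37.7 at 12 h, a difference of 0.27 ± 0.30. The difference between these 2 time effects was not shown (0.95 ± 0.43, adjusted p = 0.70). Over 24 settings the adjusted p ran from 0.0073 to 0.084. The call was lost without GPI-PLD 6 h replicate 1 (0.084) or 4 (0.070), without GPI-PLD 12 h replicate 1 (0.057) or 3 (0.053), with no pseudocount (0.053) and with only the 8 GPI-PLD arrays in the fit (0.067).

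H2BC9, an H2B gene read by an _x_at probe set, read 161.0, 174.0, 116.4 and 310.3 in GPI-PLD arrays at 6 h, and 33.8, 28.2, 20.1 and 52.9 at 12 h. All 12 h arrays were below all 6 h arrays. H2BC9 fell by 1.35 ± 0.34 on the log2 scale (95% interval -2.05 to -0.65), with a limma adjusted p of 0.024. In LacZ arrays it read 91.5, 62.4, 134.4 and 105.9 at 6 h and 151.9, 13.3, 40 and 44.6 at 12 h, so that 3 of 4 arrays were low and 1 was high at 12 h, with a difference of -0.46 ± 0.34. The difference between the 2 time effects was -0.89 ± 0.47 (adjusted p = 0.76). Over 24 settings the adjusted p ran from 0.012 to 0.086. The call was lost without GPI-PLD 6 h replicate 2 (0.051) or 4 (0.086), without GPI-PLD 12 h replicate 1 (0.057), 2 (0.056) or 3 (0.067), without GPI-PLD 12 h replicates 2 and 4 together (0.083) and with only the 8 arrays compared (0.053).

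**Figure D3:**
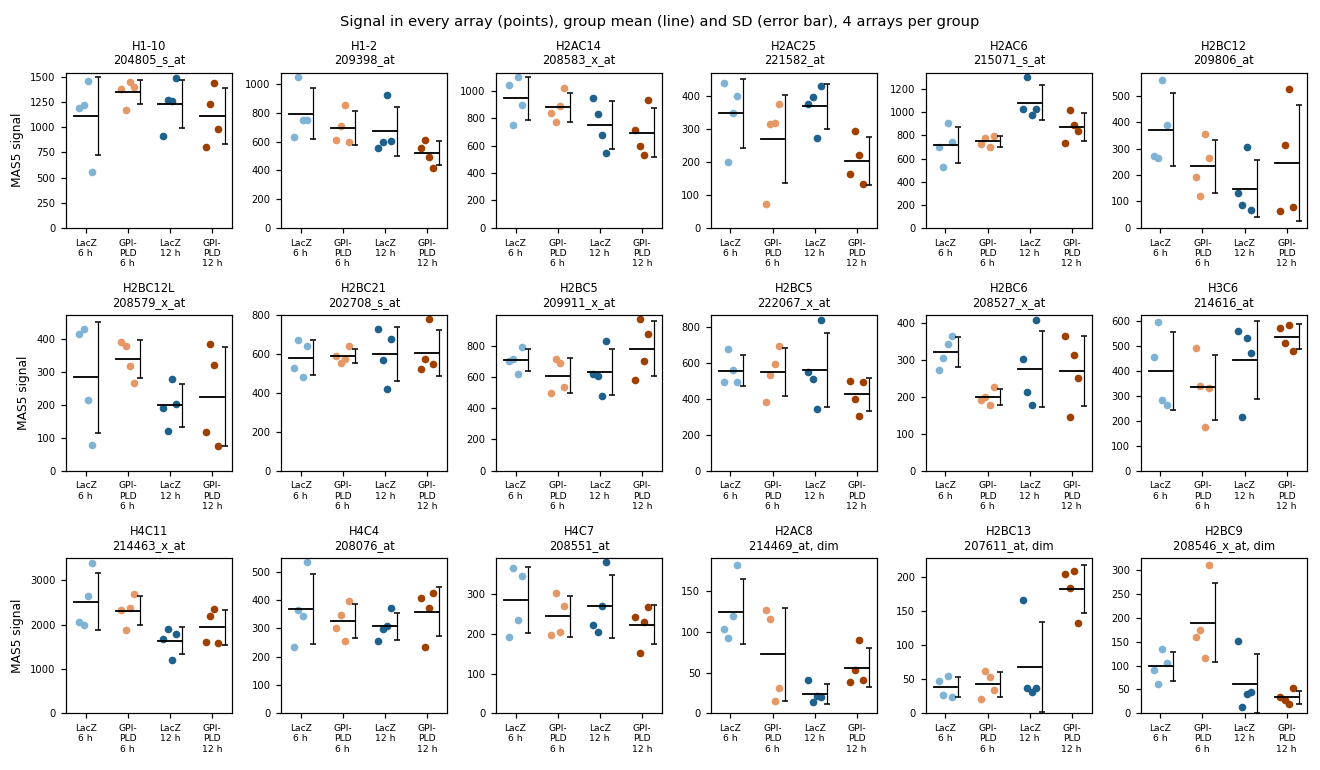
Deposited MAS5 signal of each array (points) with the group mean (line) and SD (bar), 4 arrays per group, for the 15 histone probe sets above the dimness limit and for H2AC8, H2BC13 and H2BC9, which are dim. Each panel has its own axis from 0. The 4 GPI-PLD 12 h arrays of H2BC13 sit between 133.1 and 209.1, above the GPI-PLD 6 h arrays, and those of H2BC9 sit between 20.1 and 52.9, below them.

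H2AC17 was lower at 12 h in GPI-PLD arrays by a log2 difference of -1.17 ± 0.39, which did not pass (adjusted p = 0.11). It read 267.3, 320.0, 207.6 and 171.5 at 6 h and 27.5, 39.2, 221.2 and 55.3 at 12 h. Replicate 3 at 12 h stood among the 6 h arrays, and without it the difference was -1.54 and passed (0.022). H4C8 read 62.9, 79.0, 97.4 and 175.7 in GPI-PLD arrays at 6 h, and 359.0, 185.3, 250.5 and 179.6 at 12 h. These groups did not overlap, and the difference of 0.89 ± 0.32 had an adjusted p of 0.16. In LacZ arrays H4C8 differed by 0.04 ± 0.32. H3C6, the H3 probe set above the dimness limit, read 492.9, 339.3, 174.6 and 331.2 in GPI-PLD arrays at 6 h, and 573.1, 512.6, 586.7 and 479.2 at 12 h, with an overlap of 1 array of each time. Its difference was 0.66 ± 0.29 (adjusted p = 0.27), against 0.13 ± 0.29 in LacZ arrays. H3C1 was among the dimmest, at 151.9, 16, 94.9 and 7.0 in GPI-PLD arrays at 6 h, and 16.9, 30.3, 20.6 and 10.1 at 12 h, with a difference of -0.51 ± 0.28 (0.39). H1-2 had a difference of -0.37 ± 0.19 in GPI-PLD arrays (0.35) and -0.23 ± 0.19 in LacZ arrays. In GPI-PLD arrays 3 members were higher at 12 h without overlap, H2BC13, H4C8 and H2BC3 (5.84% of all probe sets), and 1 was lower, H2BC9 (4.59%). H2BC3 stood outside the naming rule and was named after its values were seen.

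The time effects of the LacZ and the GPI-PLD arrays share no arrays. Over the 43 members 24 had the same sign in both (55.8%), beside 57.8% of all probe sets. Above the dimness limit it was 10 of 15, of which 7 were lower at 12 h in both and 3 were higher in both. Of 26 pairs of members next to each other in the RefSeq gene order, 11 had the same sign in LacZ arrays and 14 in GPI-PLD arrays, but 23 of these pairs held a dim probe set. The 3 pairs above the limit, H2BC6 with either H2BC5 probe set and with H4C4, had the same sign 3 times and 2 times. Of the 15 brighter members 13 had a 95% interval within 2-fold in LacZ arrays and 12 in GPI-PLD arrays, the exceptions being H2BC12 and H2BC12L in both and H3C6 in GPI-PLD arrays. Of the 28 dim members 11 and 7 did. The median within-group SD on the log2 scale was 0.50 for dim and 0.30 for brighter members. The median half-width of a 95% interval was 1.65-fold and 1.40-fold. All these values are on signal + 63, so for dim members they understate the uncertainty in the fold of the signal itself.

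**Figure D4:**
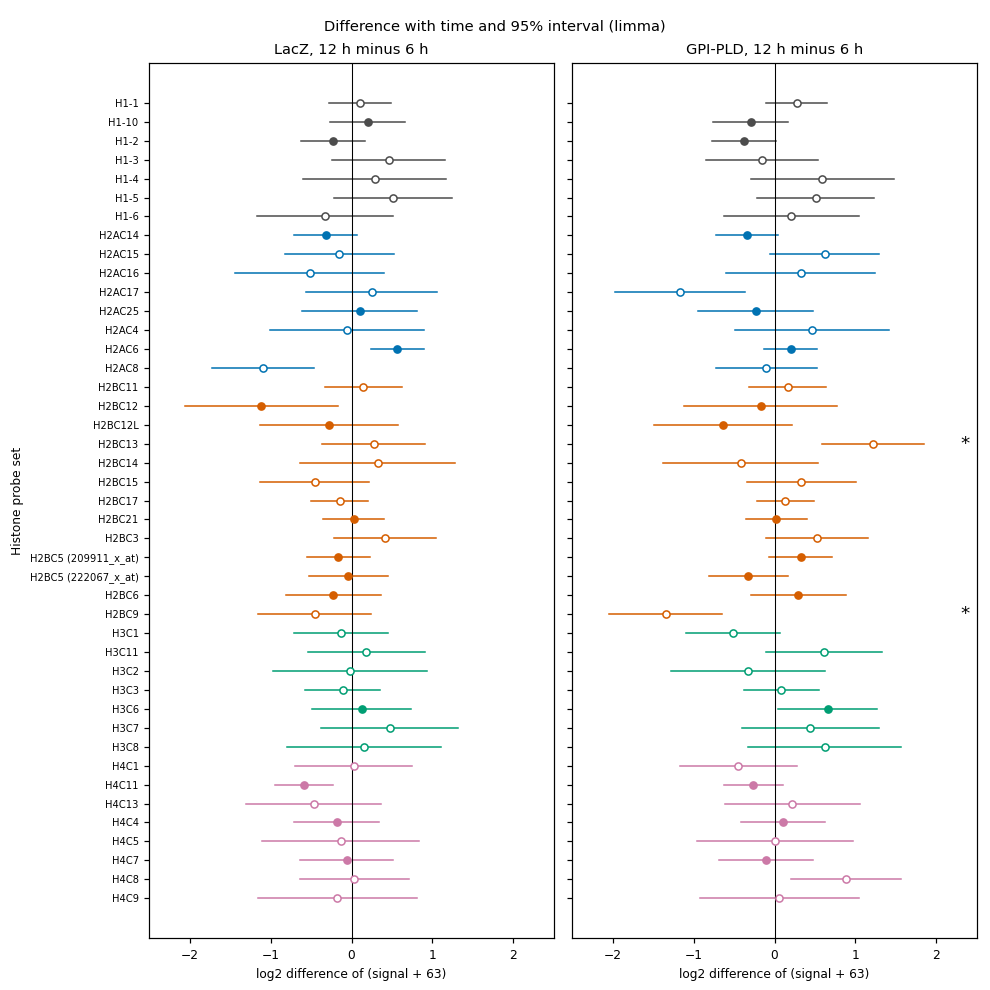
Difference between 12 h and 6 h in LacZ arrays (left) and GPI-PLD arrays (right) for each histone probe set, as log2 of signal + 63, with its 95% interval from limma. Filled points are above the dimness limit, open points are dim, colours are histone classes and asterisks mark an adjusted p under 0.05. H2BC13 (1.22) and H2BC9 (-1.35) carry the asterisks, both in GPI-PLD arrays.

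The 20 probe sets annotated to several histone genes were counted by class, with 5 for H2A, 5 for H2B, 2 for H3, 6 for H4 and 2 for H2A and H3 together. Of these 10 were dim. Over the 20 the median difference between 12 h and 6 h was -0.18 in LacZ and -0.21 in GPI-PLD arrays. Over all probe sets it was 0.00 and 0.05. None of the 20 passed between the vectors, and 0 passed with time in GPI-PLD arrays. In LacZ arrays 0 passed as higher and 1 as lower, where 1.14% of all probe sets and 1.84% of those above the dimness limit were lower. That one was an H4 probe set (_x_at) annotated to 14 H4 genes. It read 1787.5, 1423.7, 2078.6 and 1449.6 in LacZ arrays at 6 h, and 966.3, 1027.1, 1197.5 and 1131.8 at 12 h, so all 12 h arrays were below all 6 h arrays. It fell by 0.60 ± 0.14 on the log2 scale (limma adjusted p = 0.017). In GPI-PLD arrays its times did not overlap either, with a difference of -0.28 ± 0.14 (0.32). H4C11 is among the genes it is annotated to, so it and the H4C11 probe set may read the same transcripts. Another 4 probe sets were annotated to 14 H4 genes, 3 of them dim, and all 4 had differences above 0 in LacZ arrays that did not pass. The brightest of these (_at, mean signal 7734, H4C11 among its genes) read 6608.1, 5470.0, 6802.3 and 6230.1 in LacZ arrays at 6 h, and 8973.0, 8626.1, 6847.7 and 10940.5 at 12 h. Its 12 h arrays were all above its 6 h arrays, opposite to the probe set that passed, with a difference of 0.48 ± 0.26 (adjusted p = 0.49), and in GPI-PLD arrays it differed by -0.16 ± 0.26. It was named after its values were seen. Probe sets that share H4 genes thus disagreed in direction with time in LacZ arrays. Every shared probe set above the dimness limit was lower at 12 h in GPI-PLD arrays, and in LacZ arrays all but this brightest H4 one were. The dim shared probe sets had both signs under either vector. Several of the brighter ones list the same genes, so they are not separate readings. These signs were looked at after the fact, and the same share over all probe sets above the limit was not counted. A dim H2B probe set (_at), also named after the fact, did not overlap with time in LacZ arrays. It ran from 234.1 to 342.1 at 6 h and from 41.4 to 149.1 at 12 h. Its difference was -1.19 ± 0.33 (limma adjusted p = 0.056), and -0.80 ± 0.33 in GPI-PLD arrays (0.22). Another dim H2B probe set (_at) was higher at 12 h without overlap in LacZ arrays (0.66 ± 0.43, 0.58). A dim H4 probe set annotated to 14 H4 genes was higher without overlap in GPI-PLD arrays (0.77 ± 0.30, 0.19). They too were named after the fact. Over all probe sets 4.55% were higher and 3.99% lower without overlap in LacZ arrays, and 5.84% and 4.59% in GPI-PLD arrays.

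Other genes of histone supply and of the cell cycle were set beside these, from lists chosen for their function. All 5 lists below had 0 calls between the vectors in any of the 4 contrasts. With time, 1.59% of all probe sets were higher and 1.14% lower in LacZ arrays, and 2% and 1.8% in GPI-PLD arrays. Above the dimness limit, where most probe sets of these lists lay, the shares were 2.57% and 1.84%, and 2.98% and 2.95%. The S phase list, of 46 genes for DNA replication and nucleotide supply read by 70 probe sets, had 19 probe sets lower and 0 higher with time in LacZ arrays, and 27 lower and 0 higher in GPI-PLD arrays. Its median differences were -0.39 and -0.52, and 66 and 63 of the 70 were below 0. GINS1, a subunit of the replicative helicase complex, read 3830 ± 432 at 6 h and 2237 ± 146 at 12 h in LacZ arrays (SD, n = 4), and fell by 0.76 ± 0.10 (limma adjusted p = 0.00010). PCNA, the sliding clamp of DNA polymerase, fell by 0.67 ± 0.11 in LacZ and 0.78 ± 0.11 in GPI-PLD arrays. MCM2 of the replicative helicase fell by 0.69 ± 0.10 and 0.56 ± 0.10, and DUT, which removes dUTP, by 0.45 ± 0.11 and 0.87 ± 0.11 at the probe set with the smallest p. The brightest DUT probe set fell by 0.36 ± 0.09 and 0.52 ± 0.09, and the least bright did not pass (-0.52 ± 0.20 and -0.24 ± 0.20). The summed signal of the 70 probe sets ran from 160300 to 176800 in LacZ arrays at 6 h and from 115300 to 127200 at 12 h, and in GPI-PLD arrays from 161700 to 183300 and from 118900 to 129300. The list for G2 and mitosis had 17 of 56 probe sets lower in LacZ and 23 in GPI-PLD arrays, 0 higher in either, and medians of -0.37 and -0.43. AURKA, the mitotic kinase Aurora A, fell by 1.11 ± 0.12 and 0.87 ± 0.12 at its brightest probe set. At another AURKA probe set it fell by 0.61 ± 0.10 and 0.81 ± 0.10. CCNB1 (cyclin B1) fell by 0.70 ± 0.09 and 0.65 ± 0.09. For the histone probe sets above the dimness limit the medians were -0.16 and -0.17, with 10 and 9 of 15 below 0 and 0 calls. What part cell cycle stage had in the histone signals was not tested.

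**Figure D5:**
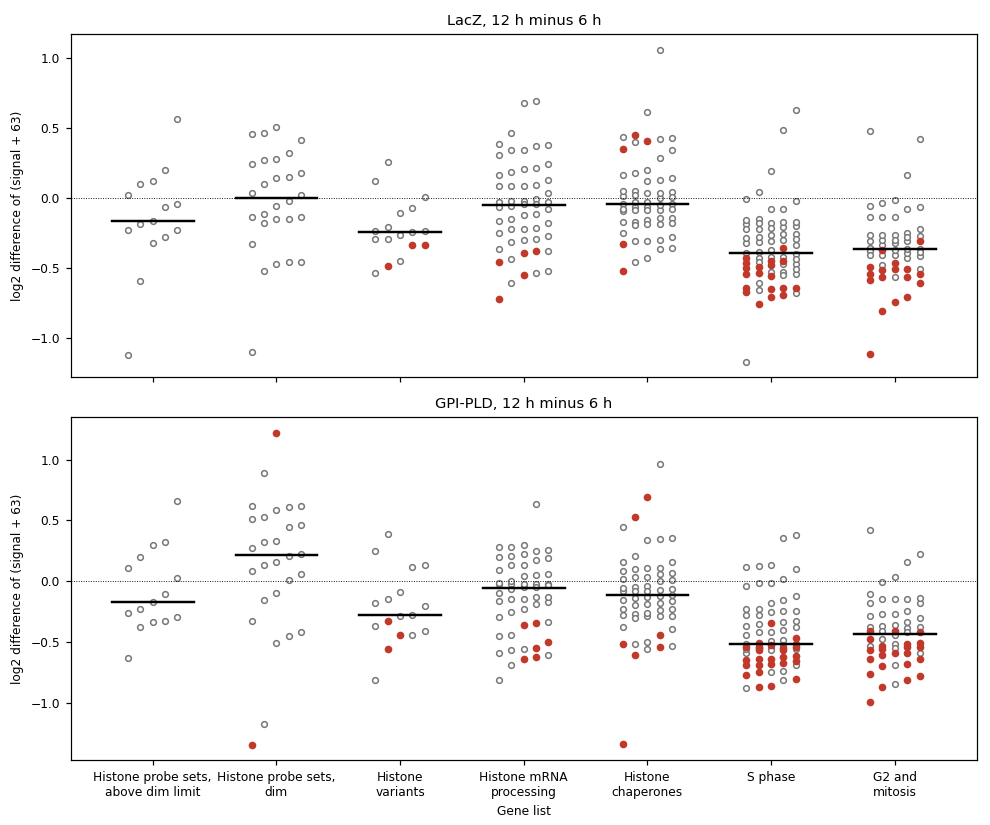
Difference between 12 h and 6 h, as log2 of signal + 63, for each probe set (points) of the histone genes above and below the dimness limit and of 5 lists, in LacZ arrays (top) and GPI-PLD arrays (bottom). Filled points passed the adjusted test and bars are medians. The S phase and mitosis medians lie between -0.37 and -0.52, while those of the brighter histone probe sets are -0.16 and -0.17.

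The list of histone variants holds mainly genes that are expressed outside S phase from polyadenylated transcripts, such as H2AZ1, H2AZ2 and H3-3A. It also holds CENPA, the centromeric H3 made in G2, H2AX, which makes a stem-loop transcript as well, and H3-4, a testis H3 gene. It had 3 of 17 probe sets lower and 0 higher with time in LacZ arrays and likewise 3 and 0 in GPI-PLD arrays, with medians of -0.24 and -0.28. The less bright probe set of H2AZ1, the H2A.Z variant found at promoters, read 17170 ± 1581 at 6 h and 13570 ± 1135 at 12 h in LacZ arrays and fell by 0.34 ± 0.08 (adjusted p = 0.028), and in GPI-PLD arrays by 0.32 ± 0.08 (0.028). The brighter H2AZ1 probe set fell by 0.34 ± 0.08 in LacZ arrays (0.032) and did not pass in GPI-PLD arrays (-0.29 ± 0.08, 0.058). MACROH2A1, a variant with a large extra domain, fell by 0.44 ± 0.08 in GPI-PLD arrays at its brightest probe set, and the difference there in LacZ arrays was -0.29 ± 0.08 (0.060). Its second probe set above the limit did not pass in either (-0.29 ± 0.10, 0.15, and -0.28 ± 0.10, 0.14). The 3 probe sets of H2AZ2 differed in what passed. The brightest fell by 0.48 ± 0.09 in LacZ arrays and differed by -0.09 ± 0.09 in GPI-PLD arrays, and the next differed by -0.11 ± 0.11 and fell by 0.56 ± 0.11. The least bright did not pass in either, with -0.20 ± 0.18 in both.

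The factors that transcribe histone genes and cut their pre-mRNA had 5 of 54 probe sets lower in LacZ and 6 in GPI-PLD arrays, 0 higher in either, and medians of -0.05 and -0.06. The named ones were proteins of the Sm ring, shared by the spliceosome and in part by U7. SNRPG fell by 0.46 ± 0.08 and 0.55 ± 0.08, and SNRPD3 by 0.55 ± 0.12 and 0.62 ± 0.12. SLBP, named for its role and after its values were seen, fell by 0.39 ± 0.09 in LacZ (adjusted p = 0.016) and 0.35 ± 0.09 in GPI-PLD arrays (0.027). NPAT, the cyclin E-CDK2 target that drives histone transcription and likewise was named after the fact, differed by -0.12 ± 0.21 and -0.01 ± 0.21 at its brightest probe set. The histone chaperones and the enzymes that acetylate new histones moved in both directions. In LacZ arrays 3 of 59 probe sets were higher and 2 lower, and in GPI-PLD arrays 2 were higher and 5 lower. NASP, which holds the soluble pool of H3 and H4, read 5241 ± 191 at 6 h and 3630 ± 98.2 at 12 h in LacZ arrays at its brighter probe set and fell by 0.52 ± 0.08, and in GPI-PLD arrays it fell by 0.54 ± 0.08. The other NASP probe set did not pass (-0.31 ± 0.20 and -0.54 ± 0.20). ASF1A, a chaperone that hands over H3 and H4, rose by 0.45 ± 0.11 and 0.69 ± 0.11 at its brighter probe set and by 0.41 ± 0.11 and 0.53 ± 0.11 at the other. HAT1, which acetylates new H4, fell by 0.52 ± 0.11 in GPI-PLD arrays, with -0.24 ± 0.11 in LacZ arrays (0.31). CHAF1B, a subunit of the chromatin assembly factor, fell by 1.34 ± 0.28 in GPI-PLD arrays, with -0.18 ± 0.28 in LacZ arrays (0.88).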

How the data were processed

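The 16 Affymetrix arrays of HepG2 cells were analysed, 4 per group. The values are signals on a linear intensity scale, computed by the authors with MAS5 per the submitters' processing notes. Other upstream steps are not given in the labels. Detection calls were not used here. All 16 columns of values were used (0 left out), and replicates were numbered in deposited order.

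Of 22283 probe sets, 68 were controls. All others were fitted without a filter on low signals, so that every member had a value. Signals were analysed as log2(signal + 63), 63 being the 20th percentile of all signals. Limma 3.58.1 (statmod 1.5.0, R 4.3.3) fitted the means of the 4 groups, and moderated variances came from eBayes, trend and robust both on (12 residual degrees of freedom), with Benjamini-Hochberg adjustment within each contrast and a threshold of 0.05. Tables and plots used Python 3.11.15, pandas 2.3.3, numpy 2.4.6 and matplotlib 3.10.9. The steps were tested on simulated data. All 43 members matched current RefSeq gene IDs with the same symbol. Genes with several promoters were read by the first listed.

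The members, the lists and the rules were chosen with earlier results of these data known. Named were every member called, the brightest and the 2 with the smallest p of each class, the 3 with the smallest p in each virus contrast, and of each list the 4 with the smallest p with time and 2 between vectors, of which only some are given. The signals were also quantile normalized or scaled to a common 75th percentile, with the pseudocount dropped or made 4 times as large. Filters at the 40th and 60th percentile, 1 probe set per gene with the filter at the 40th percentile, plain eBayes, array weights, fits of the 8 arrays alone and fits lacking 1 array were tried too. A fit lacking both replicates 2 and 4 of GPI-PLD at 12 h was chosen after seeing the data. The number of arrays limits the precision.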

Additional observations from a re-analysis of the deposited data

Results flagged for a closer look

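Single arrays stood apart from the other 3 of their group in 18 of 172 groups of 4 signals (10.5%). The gap used is one that about 5% of groups of normally distributed values exceed. The check was made on linear signals, which need not be normally distributed, and was not run over all probe sets. The 10.5% therefore has no reference here. All 18 were the highest array of the group, and 16 belonged to dim probe sets.

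In LacZ arrays at 6 h, H2AC15 read 126.8 in replicate 1 against 14.7 to 32.6 in the others, and H2BC3 read 131.8 in replicate 1 against 11 to 29.0. In GPI-PLD arrays at 6 h, H1-6 read 135.0 in replicate 4 against 16.6 to 22.6, and H4C13 read 89.9 in replicate 2 against 11.4 to 21.6.

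In LacZ arrays at 12 h, H1-1 read 46.5 in replicate 3 against 23.6 to 27.4. H1-2, above the dimness limit, read 923.9 in replicate 3 against 558.2 to 607.9, and H2AC6, also above it, read 1306.0 in replicate 2 against 978.3 to 1031.1. H1-3 read 272.4 in replicate 2 against 78.1 to 104.9, and H3C11 read 209.2 in replicate 2 against 14.9 to 43.6. H2BC11 read 71.0 in replicate 1 against 6.9 to 15, and H2BC13 read 167.0 in replicate 1 against 31.8 to 37.7. H2BC15 read 107.7 in replicate 4 against 31.3 to 33.4.

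In GPI-PLD arrays at 12 h, H2AC17 read 221.2 in replicate 3 against 27.5 to 55.3, and H2BC11 read 87.4 in replicate 4 against 15.2 to 25.7. H2BC14 read 219.0 in replicate 2 against 12.2 to 34.1, and H3C2 read 160.0 in replicate 2 against 14.8 to 18.5. H4C1 read 144.3 in replicate 1 against 33 to 45.6, and H4C13 read 176.4 in replicate 1 against 16 to 27.9. No cause was tested for any of these.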

How the results depend on the processing

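No paired analysis was possible because arrays of different groups carry no shared number, batch or culture in the labels. No value changed sign among those called. Between the vectors, the counts of histone probe sets called stayed at 0 in each direction under every setting run. With time in LacZ arrays the count higher was 1 (H2AC6) in place of 0 with filters at the 40th and 60th percentile, 1 probe set per gene joined to the 40th percentile filter, and array weights, and the count lower was 1 with quantile normalization and 75th percentile scaling (H2AC8) and with these 3 filtered settings (H4C11). Leaving out single arrays, both counts ran from 0 to 1. With time in GPI-PLD arrays the count higher (H2BC13) was 0 in place of 1 with no pseudocount, the 3 filtered settings and only the 8 arrays compared, and the count lower (H2BC9) was 0 with the 3 filtered settings, only the 8 arrays and, added after the data were seen, without GPI-PLD 12 h replicates 2 and 4. The filtered settings remove both dim probe sets from the test. Leaving out single arrays, these counts ran from 0 to 1, and without GPI-PLD 12 h replicate 3 the 1 lower was H2AC17. The number of dim members was 18 with a limit at the 20th percentile. Class medians that moved by more than the spread were H1 with time in GPI-PLD arrays (0.68 with no pseudocount, -0.33 with either filter), H2A at 6 h between vectors (-0.0097, 60th percentile filter), H2A in the difference between the times (-0.33 and -0.19 with the 40th and 60th percentile filters), H2A with time in GPI-PLD arrays (-0.23, 40th) and H4 with time in LacZ arrays (-0.59, 60th). These filters leave few members in a class. The cause was not tested for the other changes. Dim signals limit what can be seen in 28 of 43 probe sets.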
